A study of Homo sapiens with 4 samples.

Results

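The 41 genes described here belong to the integrated stress response and the unfolded protein response, the transcriptional programmes by which a cell answers amino acid shortage and misfolded protein in the endoplasmic reticulum (ER). They were chosen by name from the 43622 genes of the transcript abundance table and were split by role into 5 sensors and factors (EIF2AK3, ERN1, ATF6, ATF4 and XBP1), 25 targets of ATF4 and 11 ER chaperones and quality control genes. All 41 had a mean of at least 0.1 TPM, the length-normalised share of a library's transcripts, and were among the 19932 genes tested. RNA-seq had been run on PC3, an established human prostate cancer cell line, in 4 conditions of 3 libraries each. Ctrl cells were wild-type PC3 with the vehicle DMSO and MLN cells were wild-type PC3 with MLN4924, an inhibitor of the conjugation of NEDD8 to cullins and other proteins. In shARF and Both, PC3 cells carried a short hairpin RNA against p14ARF, labelled Sh ARF, and received DMSO or MLN4924. MLN4924 was at 1 µM for 72 h. The hairpin came by retrovirus with drug selection, while no control hairpin is named for the Ctrl and MLN cells, so carrying a retrovirus and losing p14ARF cannot be told apart. The series' own design text calls the cells a knockout and gives the dose in mM, whereas the treatment protocol gives µM and the genotype label gives an shRNA.

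CDKN2A, the gene of p14ARF and p16INK4a, averaged 183 TPM with vehicle (Ctrl) and 118 TPM with drug (MLN), against 59.3 TPM (shARF) and 47.5 TPM (Both) with the hairpin, and fell by 1.63 on the log2 scale in shARF against Ctrl (adjusted p = 2.24e-05, limma). The epithelial markers KRT8, KRT18 and EPCAM were present in each condition, but their levels differed. KRT18 averaged 235 TPM (Ctrl), 156 TPM (MLN), 436 TPM (shARF) and 128 TPM (Both). In the same order EPCAM averaged 48.6, 28.4, 76.5 and 19.8 TPM, and KRT8 90.6, 93.1, 145 and 80.2 TPM. The collagen gene COL1A1 averaged 7.27, 18.2, 4.04 and 6.08 TPM. The part of these genes in the results was not tested. The leukocyte marker PTPRC did not pass 0.322 TPM in any library. KLK3, which PC3 cells are known to lack, was listed at 0 in all 12 libraries. PECAM1, an endothelial marker, averaged 11.7 TPM (Ctrl), 0.579 TPM (MLN), 1.91 TPM (shARF) and 0.173 TPM (Both), and its part in the results was not tested. Replicate libraries correlated with r between 0.9745 and 0.980 across the genes tested. The sources used here do not say whether replicates were separate cultures, so p-values measure the spread between these libraries, which may be technical. TPM keeps no read depth, and the depth of these libraries is unknown.

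In the integrated stress response, kinases such as PERK (EIF2AK3) phosphorylate the translation factor eIF2, which lowers general protein synthesis but favours translation of the transcription factor ATF4, and ATF4 then switches on genes for amino acid uptake, amino acid synthesis and, under prolonged stress, CHOP (DDIT3). In the unfolded protein response, PERK acts beside the ER-resident sensors IRE1 (ERN1) and ATF6, which through spliced XBP1 and cleaved ATF6 raise the chaperones and the degradation machinery of the ER. Both ATF4 translation and XBP1 splicing are regulated after transcription, and neither is read by gene-level TPM.

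Some of the members' promoters hold letters of the sequence elements through which the branches are known to act. RefSeq promoter windows of GRCh38.p14, from 250 bases before to 50 bases after the gene's start, were matched for 38 of the 41 members (not NUPR1, PSPH and SHMT2) and searched on both strands. The C/EBP-ATF response element (CARE), bound by ATF4, was searched as TGATGNAA. The ER stress response element (ERSE), bound by ATF6 with NF-Y, was searched as CCAAT and CCACG with any 9 bases between. The unfolded protein response element (UPRE), bound by XBP1 and ATF6, was searched as TGACGTGG. CARE letters were found in 4 of 22 ATF4 target promoters (CHAC1, ASNS, SLC3A2 and SLC7A1), in 1 of 11 chaperone promoters (HERPUD1) and in 3.67% of all 27305 promoters. ERSE letters were found in 4 of 11 chaperone promoters (HSPA5, HSP90B1, CALR and CRELD2, with HSP90B1 holding 2 copies), in XBP1, in 0 of 22 ATF4 target promoters and in 0.0806% of all promoters. UPRE letters were in no member's window and in 0.795% of all promoters. No member's window held more than 1 of the 3 kinds of element, and a match is a description of these letters only.

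The stretches around the matches upstream of the start are shown because CHAC1 and ASNS differ in their response below. The 4 chaperone genes with ERSE letters fell with MLN4924 in wild-type cells, but so did all 11 chaperones on the list. Among all genes tested 29.4% fell. XBP1, the other member with ERSE letters, rose by 0.75 on the log2 scale there and by 0.66 in Both against shARF. In Both against shARF HSP90B1, CALR and CRELD2 fell, while no fall was found for HSPA5. Capitals mark the element as found on the gene's strand, so an element read from the other strand appears reversed and complemented. They lie at chr15:40953242-40953289 (+) for CHAC1, chr7:97872449-97872496 (-) for ASNS, chr16:56931946-56931993 (+) for HERPUD1, chr9:125241371-125241429 (-) for HSPA5, chr12:103930196-103930254 (+) and chr12:103930301-103930359 (+) for HSP90B1, chr19:12938364-12938422 (+) for CALR, chr22:49918534-49918592 (+) for CRELD2 and chr22:28800583-28800641 (-) for XBP1.
CHAC1 (CARE): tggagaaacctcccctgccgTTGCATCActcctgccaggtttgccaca
ASNS (CARE): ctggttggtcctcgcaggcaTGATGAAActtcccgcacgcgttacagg
HERPUD1 (CARE): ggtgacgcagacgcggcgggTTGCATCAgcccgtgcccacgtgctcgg
HSPA5 (ERSE): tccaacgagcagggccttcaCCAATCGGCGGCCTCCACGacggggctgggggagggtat
HSP90B1 (ERSE, far copy): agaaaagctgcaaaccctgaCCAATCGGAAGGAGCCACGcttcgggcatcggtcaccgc
HSP90B1 (ERSE, near copy): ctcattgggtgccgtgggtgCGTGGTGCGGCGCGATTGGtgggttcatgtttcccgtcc
CALR (ERSE): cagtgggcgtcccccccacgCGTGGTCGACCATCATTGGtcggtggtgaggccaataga
CRELD2 (ERSE): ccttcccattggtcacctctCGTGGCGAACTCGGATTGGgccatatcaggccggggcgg
XBP1 (ERSE): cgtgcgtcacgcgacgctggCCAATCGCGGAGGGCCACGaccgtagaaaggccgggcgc

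With MLN4924, most ATF4 targets rose while most ER chaperones fell, in cells with and without the hairpin. In MLN against Ctrl 18 of the 41 members rose and 17 fell at an adjusted p below 0.05 (limma on log2(TPM + 0.1), Benjamini-Hochberg over all genes tested), where 32.2% of all genes tested rose and 29.4% fell. A fold change above 1 on the log2 scale was reached by 8 members, against 15.6% of all genes, and one below -1 by 5 members, against 12.4%. In Both against shARF 24 members rose and 13 fell, where 28.3% of all genes rose and 32.8% fell. There, 10 members were above 1, against 13.0% of all genes, and 3 were below -1, against 13.4%. In bulk RNA, fewer cells of a kind and less RNA per cell cannot be told apart.

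The plot of fold changes by role sets both responses side by side. MLN against Ctrl and Both against shARF share no library. Across the 41 members their log2 fold changes correlated (Pearson r 0.893, Spearman rho 0.893), beside 0.770 and 0.741 across all genes tested, a correlation across genes, which are not independent replicates. The fold change had the same sign in 34 of 41 members (82.9%), near the 78.7% of all genes tested. Called in both responses were 17 members that rose, 12 that fell and 3 that went opposite ways (ERN1, CBS and DNAJB9), or 41.5%, 29.3% and 7.32% of the members, beside 22.0%, 22.8% and 2.28% of all genes tested.

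**Figure D1:**
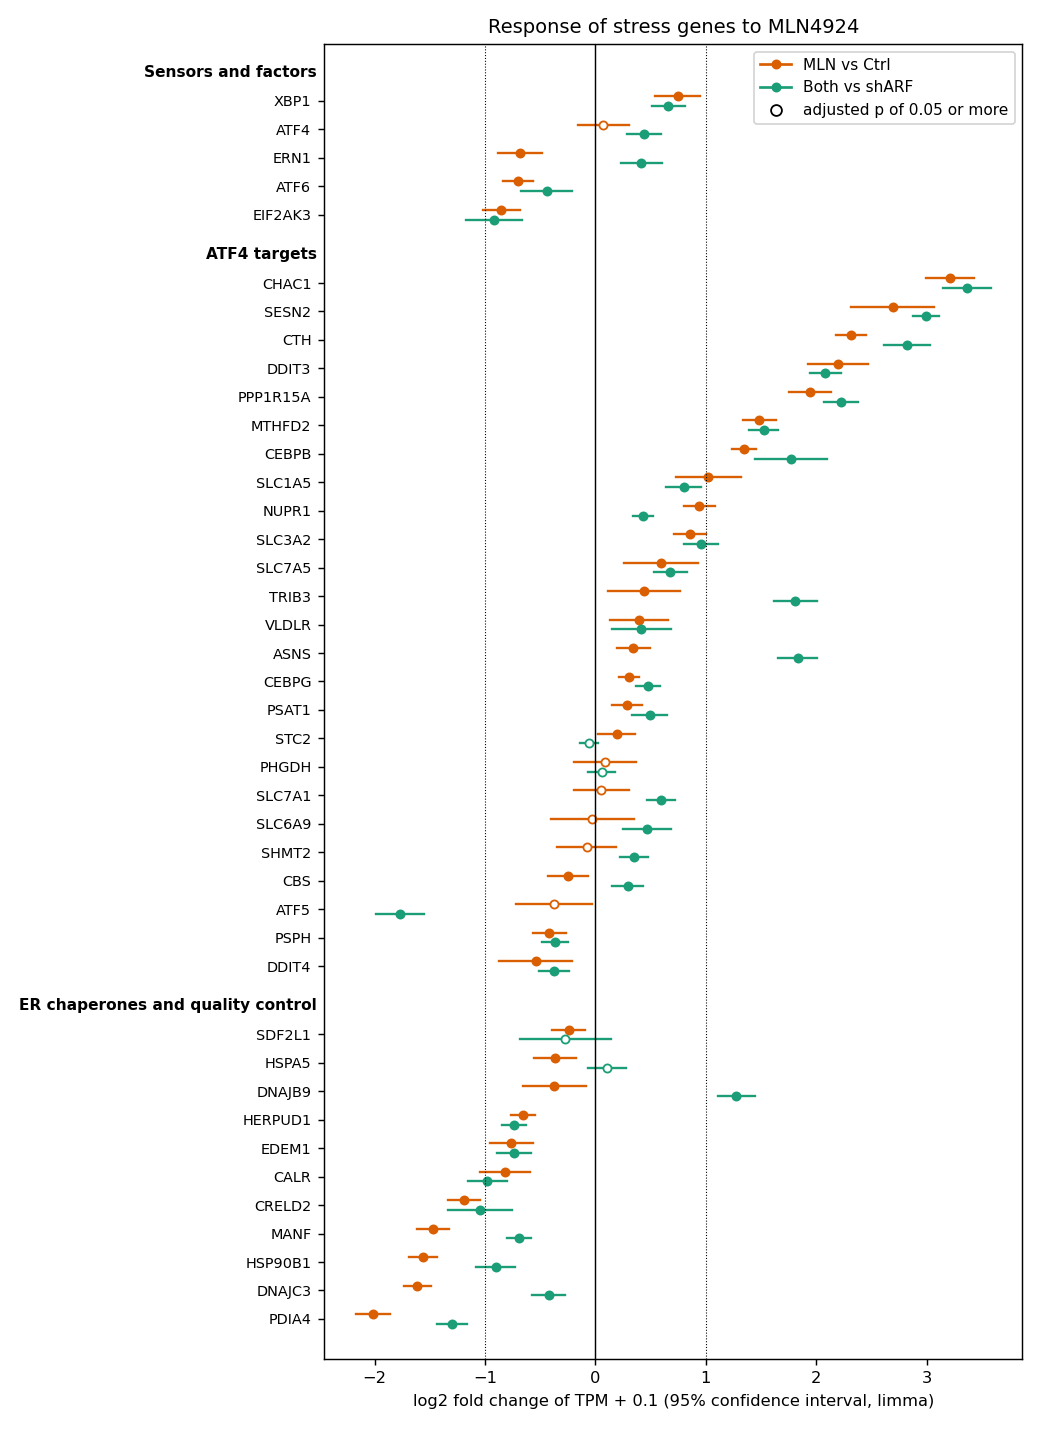
Log2 fold change of TPM + 0.1 on the horizontal axis for each of the 41 members, grouped by role, in MLN vs Ctrl (orange) and Both vs shARF (green), with 3 libraries per condition. Points are limma estimates, bars their 95% confidence intervals, open points have an adjusted p of 0.05 or more, and dotted lines mark 1 and -1: CHAC1 lies highest in both responses, at 3.21 and 3.36, while PDIA4 lies lowest in MLN vs Ctrl, at -2.01.

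The 3 ER stress sensors fell with MLN4924 in wild-type cells. In the Ctrl libraries EIF2AK3 measured 22.1, 21.7 and 23.5 TPM against 11.98, 11.8 and 13.4 TPM in MLN, and in shARF 24.04, 22.1 and 23.1 TPM against 12.4, 13.8 and 10.5 TPM in Both. EIF2AK3, which encodes PERK, fell by 0.85 (log2) in MLN (adjusted p = 0.000131, limma) and by 0.92 in Both against shARF (adjusted p = 0.000519), with no overlap of treated and vehicle libraries. The 3 Ctrl libraries held ATF6 at 55.8, 51.8 and 56.1 TPM and the MLN libraries at 32.3, 33.4 and 35.00 TPM, the shARF libraries at 52.6, 54.02 and 51.98 TPM and the Both libraries at 40.1, 43.3 and 33.8 TPM. ATF6, whose cleaved form is a transcription factor, fell by 0.70 (adjusted p = 0.000108) and by 0.44 (adjusted p = 0.00748). Levels of ERN1 went from 30.9, 25.3 and 26.6 TPM (Ctrl) to 17.05, 17.5 and 16.9 TPM (MLN), and from 12.1, 12.8 and 13.5 TPM (shARF) to 17.5, 18.3 and 15.7 TPM (Both). ERN1, which encodes IRE1, the kinase and RNase that splices XBP1, fell by 0.68 in MLN (adjusted p = 0.000655, limma) but rose by 0.42 in Both against shARF (adjusted p = 0.00417). Its lowest values were in shARF, and the MLN and Both libraries overlapped.

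ATF4 and XBP1 are the transcription factors of the PERK and IRE1 branches. At the mRNA level both rose in Both against shARF, while in MLN against Ctrl XBP1 rose and ATF4 was not called. ATF4 was at 723, 671 and 726 TPM in the Ctrl libraries and 672, 728 and 837 TPM in MLN, and with the hairpin at 559, 582 and 585 TPM in shARF and 804, 816 and 722 TPM in Both. The MLN and Ctrl libraries of ATF4 overlapped, and the difference on the log2 scale was 0.073 (95% interval -0.16 to 0.31, adjusted p = 0.539, limma). In Both against shARF ATF4 rose by 0.44 with no overlap (adjusted p = 0.00142). In the Ctrl libraries XBP1 measured 150.4, 135 and 150.2 TPM against 219.7, 251 and 261 TPM in MLN, and in shARF 142, 148 and 137 TPM against 239, 227 and 209 TPM in Both. XBP1 rose by 0.75 in MLN (adjusted p = 0.000462, limma) and by 0.66 in Both against shARF (adjusted p = 0.000231), and all 6 drug-treated libraries lay above all 6 vehicle libraries.

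Of the 25 ATF4 targets, 17 rose and 3 fell in MLN against Ctrl, where 32.2% of all genes tested rose and 29.4% fell, with a median log2 fold change of 0.40 beside 0.052 over all genes tested. In Both against shARF 20 rose and 3 fell, beside 28.3% and 32.8% of all genes, with a median of 0.59 beside -0.038. The 8 targets with a log2 fold change above 1 in MLN, reached by 15.6% of all genes, were CHAC1, SESN2, CTH, DDIT3, PPP1R15A, MTHFD2, CEBPB and SLC1A5. The 9 above 1 in Both against shARF, reached by 13.0% of all genes, were the first 7 of these with TRIB3 and ASNS.

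Among the transcription factors, DDIT3 and CEBPB rose most. The 3 Ctrl libraries held DDIT3 at 59.4, 60.4 and 70.4 TPM and the MLN libraries at 333, 264 and 275 TPM, the shARF libraries at 61.4, 57.7 and 64.6 TPM and the Both libraries at 247, 261 and 271 TPM. DDIT3, which encodes the pro-apoptotic factor CHOP, rose 4.58-fold in MLN (log2 2.19 ± 0.11 SE, adjusted p = 2.34e-05, limma) and 4.24-fold in Both against shARF (log2 2.08 ± 0.057 SE, adjusted p = 3.09e-06). Levels of CEBPB went from 118, 114 and 117 TPM (Ctrl) to 285, 296 and 307 TPM (MLN), and from 56.2, 59.9 and 70.1 TPM (shARF) to 206, 184 and 247 TPM (Both). CEBPB, a partner of ATF4 in heterodimers, rose 2.54-fold (adjusted p = 7.43e-06, limma) and 3.41-fold (adjusted p = 9.35e-05). Neither gene's treated libraries overlapped its vehicle libraries. CEBPG, another heterodimer partner, rose by 0.31 and 0.48 on the log2 scale, and the stress-induced chromatin protein gene NUPR1 by 0.94 and 0.43. ATF5 was at 64.2, 67.7 and 58.6 TPM in the Ctrl libraries and 40.7, 48.2 and 59.1 TPM in MLN, and with the hairpin at 117, 121 and 121 TPM in shARF and 39.1, 35.7 and 30.8 TPM in Both. ATF5, a factor whose own translation is controlled like that of ATF4, was the 1 member of this group that fell in Both against shARF, by 1.77 (adjusted p = 2.16e-05, limma). In MLN its difference was -0.38 (95% interval -0.72 to -0.033, adjusted p = 0.0582), with overlapping libraries, and it was called at 0.0153 with 12 libraries in one fit. Exons of ATF5 overlap those of NUP62 and IL4I1 on the other strand. Strandedness was not given in the sources used here, and NUP62 averaged 81.9 TPM (Ctrl), 117 TPM (MLN), 108 TPM (shARF) and 101 TPM (Both), while IL4I1 averaged 6.26, 2.63, 1.64 and 1.15 TPM in the same order, so their part in the ATF5 values was not tested.

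CHAC1 and SESN2, among the feedback and stress effectors, had the largest rises of all members in both responses. In the Ctrl libraries CHAC1 measured 40.4, 39.9 and 44.7 TPM against 345, 400.0 and 417 TPM in MLN, and in shARF 28.1, 26.4 and 31.4 TPM against 319.6, 270.3 and 297 TPM in Both. CHAC1, which degrades glutathione, rose 9.26-fold in MLN (log2 3.21 ± 0.087 SE, adjusted p = 4.07e-06, limma) and 10.3-fold in Both against shARF (log2 3.36 ± 0.088 SE, adjusted p = 2.62e-06). The 3 Ctrl libraries held SESN2 at 23.2, 19.2 and 24.5 TPM and the MLN libraries at 125, 135 and 176 TPM, the shARF libraries at 17.2, 17.1 and 17.9 TPM and the Both libraries at 148, 138 and 133 TPM. SESN2, a leucine sensor that restrains mTORC1, rose 6.46-fold (adjusted p = 3.39e-05, limma) and 7.96-fold (adjusted p = 8.79e-07). Levels of PPP1R15A went from 78.3, 71.5 and 82.4 TPM (Ctrl) to 281, 289.5 and 323 TPM (MLN), and from 53.8, 50.2 and 55.1 TPM (shARF) to 247, 265 and 232 TPM (Both). PPP1R15A, which encodes GADD34, the subunit that brings a phosphatase to eIF2, rose 3.85-fold (adjusted p = 1.18e-05, limma) and 4.67-fold (adjusted p = 3.30e-06). In these 3 genes the lowest treated library lay above the highest vehicle library.

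Also in this group, TRIB3 rose and DDIT4 fell in both responses. TRIB3 was at 433, 401 and 421 TPM in the Ctrl libraries and 473, 568 and 677 TPM in MLN, and with the hairpin at 209, 211 and 213 TPM in shARF and 828, 722 and 675 TPM in Both. TRIB3, a pseudokinase that inhibits AKT and feeds back on ATF4, rose 1.36-fold in MLN (log2 0.44, adjusted p = 0.0289, limma) and 3.504-fold in Both against shARF (log2 1.81, adjusted p = 1.37e-05). The smaller of these calls was lost without MLN replicate 2 or without any 1 of the 3 Ctrl libraries, with an adjusted p up to 0.0921. DDIT4, which encodes the mTORC1 inhibitor REDD1, fell by 0.54 in MLN (adjusted p = 0.0134, limma, and 0.0511 without MLN replicate 5) and by 0.37 in Both against shARF (adjusted p = 0.00161).

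**Figure D2:**
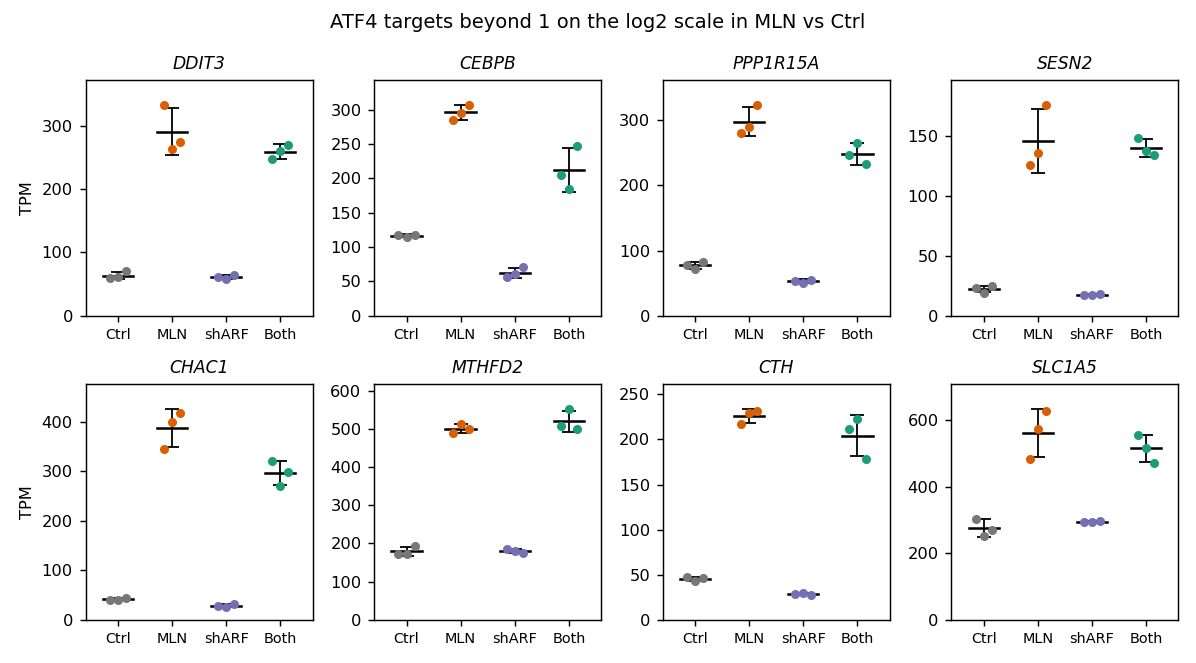
TPM on the vertical axis from 0 for the 8 ATF4 targets with a log2 fold change above 1 in MLN vs Ctrl, by condition on the horizontal axis. Dots are the 3 libraries of a condition, lines the mean and bars the SD (n = 3): in each panel the MLN and Both libraries lie above the Ctrl and shARF libraries, for CHAC1 between 270.3 and 417 TPM against 26.4 to 44.7 TPM.

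In amino acid and one-carbon synthesis, 4 of 8 members rose and 2 fell in MLN, where 32.2% of all genes rose and 29.4% fell, and 6 rose and 1 fell in Both against shARF, beside 28.3% and 32.8%. In the Ctrl libraries CTH measured 47.4, 42.6 and 45.9 TPM against 217, 229 and 231 TPM in MLN, and in shARF 28.9, 29.4 and 27.7 TPM against 211, 223 and 179 TPM in Both. CTH, cystathionine gamma-lyase, which makes cysteine, rose 4.98-fold (log2 2.32 ± 0.055 SE, adjusted p = 2.92e-06, limma) and 7.07-fold (log2 2.82 ± 0.086 SE, adjusted p = 4.27e-06). The 3 Ctrl libraries held MTHFD2 at 172, 173 and 193 TPM and the MLN libraries at 489, 512 and 501 TPM, the shARF libraries at 187, 181 and 175 TPM and the Both libraries at 509, 552 and 500.1 TPM. MTHFD2, a mitochondrial folate enzyme, rose 2.79-fold (adjusted p = 1.26e-05, limma) and 2.87-fold (adjusted p = 6.50e-06). Their treated and vehicle libraries did not overlap. Levels of ASNS went from 218, 223 and 234 TPM (Ctrl) to 268, 302 and 287 TPM (MLN), and from 129.9, 134 and 121 TPM (shARF) to 467, 488 and 419 TPM (Both). ASNS, asparagine synthetase, rose 1.27-fold in MLN (log2 0.34, adjusted p = 0.00339, limma) and 3.56-fold in Both against shARF (log2 1.83, adjusted p = 9.54e-06). ASNS libraries stood in the order shARF, Ctrl, MLN and Both with no overlap between neighbours.

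The enzymes of serine synthesis did not move together. PSAT1, the aminotransferase, rose by 0.29 (log2) in MLN (adjusted p = 0.00559, limma) and by 0.49 in Both against shARF. PSPH, the phosphatase of the last step, fell by 0.42 (adjusted p = 0.00163, limma) and by 0.37. For PHGDH, the dehydrogenase of the first step, the 95% intervals were -0.20 to 0.37 and -0.065 to 0.18, and neither difference was called. SHMT2, which turns serine into glycine in mitochondria, was at -0.08 in MLN (adjusted p = 0.561, limma) and rose by 0.35 in Both against shARF (adjusted p = 0.00163). CBS, which makes cystathionine, fell by 0.25 in MLN (adjusted p = 0.0292, limma, and up to 0.0948 without MLN replicate 1 or 5 or Ctrl replicate 1 or 3) and rose by 0.29 in Both against shARF (adjusted p = 0.00546). CBS has a near-identical annotated copy, CBSL, which was at condition means up to 0.311 TPM, so the CBS values are uncertain.

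All 5 amino acid transporters rose in Both against shARF, where 28.3% of all genes did, and 3 of them in MLN, where 32.2% did. SLC1A5 was at 304, 252 and 269 TPM in the Ctrl libraries and 484, 572 and 626 TPM in MLN, and with the hairpin at 293, 295 and 298 TPM in shARF and 555, 517 and 472 TPM in Both. SLC1A5, the glutamine transporter ASCT2, rose 2.03-fold in MLN (log2 1.02, adjusted p = 0.000552, limma) and 1.74-fold in Both against shARF (log2 0.80, adjusted p = 0.000133), with no overlap. SLC3A2, the heavy chain shared by several exchangers, rose by 0.86 and 0.96 on the log2 scale, and its light chain SLC7A5 by 0.59 and 0.68. SLC7A1, the cationic amino acid carrier, was at 0.053 in MLN (95% interval -0.19 to 0.30) and rose by 0.59 in Both against shARF (adjusted p = 0.000181, limma). SLC6A9, a glycine transporter, was at -0.028 (95% interval -0.40 to 0.35) and rose by 0.47 (adjusted p = 0.00475, limma).

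The remaining ATF4 targets encode a membrane receptor and a secreted protein. VLDLR, a lipoprotein receptor at low level, between 2.45 and 6.65 TPM in the 12 libraries, rose by 0.40 in MLN (adjusted p = 0.0188, limma) and by 0.42 in Both against shARF (adjusted p = 0.0167). Its calls were lost without MLN replicate 2, MLN replicate 5 or Ctrl replicate 1 in the former, with an adjusted p up to 0.0618, and without Both replicate 2 or shARF replicate 1 in the latter, up to 0.0533. STC2, a secreted glycoprotein, was called at 0.19 in MLN (adjusted p = 0.0497, limma), a call lost without 5 of the 6 libraries in turn (all but MLN replicate 1, adjusted p up to 0.144), and was at -0.06 in Both against shARF.

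Every ER chaperone and quality control gene on the list fell in MLN against Ctrl, 11 of 11, where 29.4% of all genes tested fell, with a median log2 fold change of -0.82 beside 0.052 over all genes tested. In Both against shARF 8 fell, beside 32.8% of all genes, 1 rose (DNAJB9) and 2 were not called (HSPA5 and SDF2L1), with a median of -0.74 beside -0.038. The 5 genes below -1 in MLN were PDIA4, DNAJC3, HSP90B1, MANF and CRELD2, against 12.4% of all genes, and the 2 below -1 in Both against shARF were PDIA4 and CRELD2, against 13.4%.

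In the folding group, PDIA4, a protein disulfide isomerase, fell most. In the Ctrl libraries PDIA4 measured 483, 471 and 445 TPM against 110.5, 124 and 112 TPM in MLN, and in shARF 293, 285 and 318 TPM against 116, 125 and 123 TPM in Both. Its decrease was 4.04-fold in MLN (log2 -2.01 ± 0.063 SE, adjusted p = 5.92e-06, limma) and 2.46-fold in Both against shARF (log2 -1.30 ± 0.055 SE, adjusted p = 1.23e-05). The 3 Ctrl libraries held HSP90B1 at 1179.8, 1227 and 1210.1 TPM and the MLN libraries at 417, 406 and 404 TPM, the shARF libraries at 795, 770.3 and 807 TPM and the Both libraries at 415, 465 and 391 TPM. HSP90B1, the HSP90 of the ER (GRP94), with the pair of ERSE copies printed above, was 2.95-fold lower in MLN (adjusted p = 7.66e-06, limma) and 1.87-fold lower in Both than in shARF (adjusted p = 0.000129). Treated and vehicle libraries of both genes did not overlap, and MLN and Both libraries did. CALR, the lectin chaperone calreticulin and the most abundant member, averaged 2161 ± 136 TPM (Ctrl) and 1226 ± 86.01 TPM (MLN), and 1897 ± 57.5 TPM (shARF) and 963 ± 64.3 TPM (Both), as mean ± SD with n = 3. It fell by 0.82 and 0.98 on the log2 scale.

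The HSP70 system of the ER was uneven. HSPA5, which encodes BiP, the HSP70 that holds the sensors inactive, averaged 1061 ± 21.6 TPM (Ctrl) and 824 ± 62.9 TPM (MLN), and 700.1 ± 10.5 TPM (shARF) and 753 ± 61.7 TPM (Both), as mean ± SD with n = 3. HSPA5 fell by 0.37 in MLN (adjusted p = 0.00682, limma) and was at 0.10 in Both against shARF (95% interval -0.069 to 0.27, adjusted p = 0.249). Under median-of-ratios scaling the latter became a rise of 0.20 (adjusted p = 0.0227). Levels of DNAJC3 went from 68.97, 63.5 and 63.04 TPM (Ctrl) to 21.4, 21.00 and 21.2 TPM (MLN), and from 26.2, 25.3 and 26.7 TPM (shARF) to 19.3, 20.9 and 18.2 TPM (Both). DNAJC3, the co-chaperone p58IPK, which also inhibits PERK, was 3.06-fold lower in MLN (log2 -1.61, adjusted p = 5.84e-06, limma) and 1.34-fold lower in Both than in shARF (log2 -0.42, adjusted p = 0.00149). DNAJB9 was at 50.2, 58.3 and 54.9 TPM in the Ctrl libraries and 49.5, 38.4 and 38.9 TPM in MLN, and with the hairpin at 17.7, 19.3 and 18.7 TPM in shARF and 47.4, 47.00 and 41.3 TPM in Both. DNAJB9, the BiP co-chaperone ERdj4 and a target of XBP1, fell by 0.37 in MLN (adjusted p = 0.0314, limma) and rose 2.42-fold in Both against shARF (log2 1.28, adjusted p = 2.83e-05). The fall of DNAJB9 in MLN was lost without MLN replicate 2 or 5 or Ctrl replicate 2 or 3 (adjusted p up to 0.102) and under median-of-ratios scaling (adjusted p = 0.0511). SDF2L1, a component of BiP complexes, fell by 0.24 in MLN (adjusted p = 0.0153, limma), a call lost with 12 libraries in one fit (adjusted p = 0.118). In Both against shARF SDF2L1 was at -0.27 (95% interval -0.69 to 0.14), and between -0.41 and -0.14 with 1 library left out.

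The degradation and secreted groups fell in both responses. HERPUD1, an organiser of the ER ubiquitin ligase, fell by 0.66 and 0.74 on the log2 scale, and EDEM1, which routes misfolded glycoproteins to degradation, by 0.76 and 0.74. In the Ctrl libraries MANF measured 255, 269.8 and 254 TPM against 88.5, 99.5 and 92.7 TPM in MLN, and in shARF 172, 186 and 181 TPM against 113, 114 and 107 TPM in Both. MANF, a secreted ER stress factor, was 2.77-fold lower in MLN (adjusted p = 1.12e-05, limma) and 1.61-fold lower in Both than in shARF (adjusted p = 5.62e-05). The 3 Ctrl libraries held CRELD2 at 24.8, 25.5 and 24.4 TPM and the MLN libraries at 10.5, 11.5 and 10.5 TPM, the shARF libraries at 19.8, 18.6 and 22.6 TPM and the Both libraries at 9.68, 8.67 and 11.2 TPM. CRELD2, a secreted protein with disulfide isomerase domains, was 2.28-fold lower (adjusted p = 2.15e-05, limma) and 2.06-fold lower (adjusted p = 0.000520). In both genes every treated library lay below every vehicle library.

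**Figure D3:**
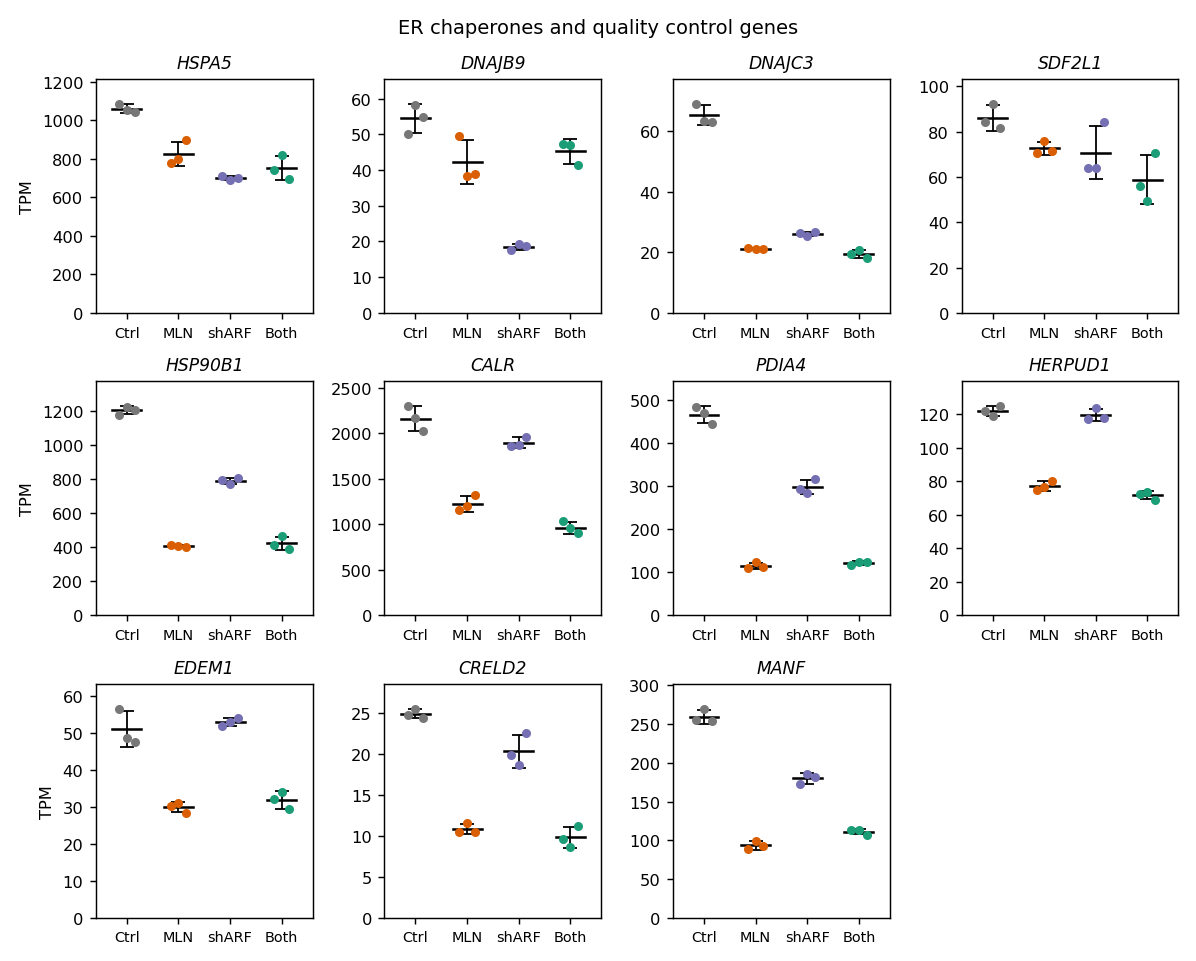
TPM on the vertical axis from 0 for the 11 ER chaperone and quality control genes, by condition on the horizontal axis. Dots are the 3 libraries of a condition, lines the mean and bars the SD (n = 3): PDIA4 lies between 445 and 483 TPM in Ctrl and between 110.5 and 125 TPM in MLN and Both, whereas DNAJB9 is lowest in shARF, between 17.7 and 19.3 TPM.

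Summed over their genes, the ATF4 targets and the ER chaperones moved opposite ways with the drug. The 25 ATF4 targets made up 3500.4 to 3762 TPM in the Ctrl libraries against 5677 to 6643 TPM in MLN, and 3156 to 3211 TPM in shARF against 6048 to 6580.3 TPM in Both. The 11 chaperones made up 5375 to 5706 TPM in the Ctrl libraries against 2803 to 3076 TPM in MLN, and 4101 to 4296 TPM in shARF against 2461 to 2711 TPM in Both. Vehicle libraries held more chaperone than ATF4 target transcripts, and drug-treated libraries the reverse, without overlap. HSPA5, HSP90B1 and CALR made up 79.7% to 84.1% of the chaperone sum by condition. All 41 members together made up a mean of 1.02% of all transcripts (Ctrl), 1.02% (MLN), 0.816% (shARF) and 0.9996% (Both).

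Without drug, cells with the hairpin had lower levels of many members. In shARF against Ctrl 2 of the 41 members rose and 20 fell, where 21.0% of all genes tested rose and 20.4% fell, and 3 were below -1 on the log2 scale (DNAJB9, DNAJC3 and ERN1), against 6.60% of all genes. Of the ATF4 targets 11 fell, with TRIB3 by 0.99 (adjusted p = 7.38e-05, limma), CEBPB by 0.91 and ASNS by 0.81 on the log2 scale. ATF5 rose by 0.92 (adjusted p = 0.000343, limma) and NUPR1 by 0.63. Of the chaperones 7 fell, with DNAJB9 by 1.55 (adjusted p = 0.000124, limma), DNAJC3 by 1.32 and HSPA5 by 0.60. ERN1 fell by 1.10 (adjusted p = 0.000701, limma) and ATF4 by 0.30 (adjusted p = 0.00521). The median was -0.11 over the ATF4 targets and -0.53 over the chaperones, beside 0 over all genes tested. The calls of CEBPG, SESN2 and CRELD2 were each lost without 5 of the 6 libraries in turn, with adjusted p up to 0.0962, 0.112 and 0.0978. The calls of CEBPG and CRELD2 held without shARF replicate 5, and that of SESN2 without Ctrl replicate 2.

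Under MLN4924, 8 of the 41 members differed with the hairpin. With 12 libraries in one fit 13 were called, and 11 when that fit was blocked on the column number. In Both against MLN 3 of the 41 members were higher and 5 lower, where 11.8% of all genes tested were higher and 20.6% lower. ASNS was higher by 0.68 on the log2 scale (adjusted p = 0.00271, limma), SLC7A1 by 0.67 (adjusted p = 0.00468) and MANF by 0.25 (adjusted p = 0.0228). VLDLR fell by 0.76 (adjusted p = 0.00411, limma), CEBPB by 0.49 (adjusted p = 0.0218), CHAC1 by 0.39 (adjusted p = 0.0309), CALR by 0.35 (adjusted p = 0.0362) and STC2 by 0.33 (adjusted p = 0.0132). The calls of ASNS, SLC7A1 and VLDLR held with each library left out in turn. Between 4 and 8 members were called with 1 library left out, the fewest without MLN replicate 2 or Both replicate 2, and the calls lost in this way were those of MANF (adjusted p up to 0.0800), CEBPB (0.0792), CHAC1 (0.105), CALR (0.105) and STC2 (0.0514). The median was -0.045 over the ATF4 targets and -0.11 over the chaperones, beside -0.080 over all genes, and neither was stable. That of the ATF4 targets lay between -0.13 (without MLN replicate 1) and 0.0062 (without MLN replicate 5) with 1 library left out, and that of the chaperones was -0.059 without Both replicate 3 and -0.069 without MLN replicate 5. Under median-of-ratios scaling the medians were 0.047 and -0.015, beside 0.0040 over all genes.

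The interaction, fitted to all 12 libraries, tested whether the response to MLN4924 differed between cells with and without the hairpin, with a positive value where it was higher with the hairpin. It was positive and called for 15 of the 41 members and negative and called for 3, where 11.2% of all genes tested were positive and 17.1% negative. Above 1 were 5 members (DNAJB9, ASNS, TRIB3, DNAJC3 and ERN1), against 3.52% of all genes, and below -1 was ATF5, against 4.95%. The interaction was 1.65 ± 0.14 SE for DNAJB9 (adjusted p = 6.52e-06, limma), 1.49 ± 0.099 for ASNS (adjusted p = 1.06e-06) and 1.37 ± 0.16 for TRIB3 (adjusted p = 6.93e-05). It was 1.19 ± 0.086 SE for DNAJC3 (adjusted p = 2.01e-06, limma), 1.10 ± 0.12 for ERN1 (adjusted p = 4.09e-05) and -1.39 ± 0.17 for ATF5 (adjusted p = 0.000103). In all 5 positive members the shARF libraries lay below the Ctrl libraries, and MLN and Both libraries overlapped for TRIB3, DNAJB9 and ERN1 but not for ASNS and DNAJC3. ATF5 was highest in shARF, at 117 to 121 TPM against 58.6 to 67.7 TPM in Ctrl. Of the 11 chaperones the interaction was positive for 8, 6 of them called, and negative for 3, with none of these called, with a median of 0.47. Of the 25 ATF4 targets it was positive for 19, 7 of them called, and negative for 6, 3 of them called, with a median of 0.17, beside -0.085 over all genes. Under median-of-ratios scaling these medians were 0.57, 0.26 and 0.0078. The 4 ATF4 targets with CARE letters had interactions of 1.49 (ASNS), 0.54 (SLC7A1), 0.15 (CHAC1) and 0.10 (SLC3A2), of which CHAC1 and SLC3A2 were not called (adjusted p = 0.416 and 0.447, limma).

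**Figure D4:**
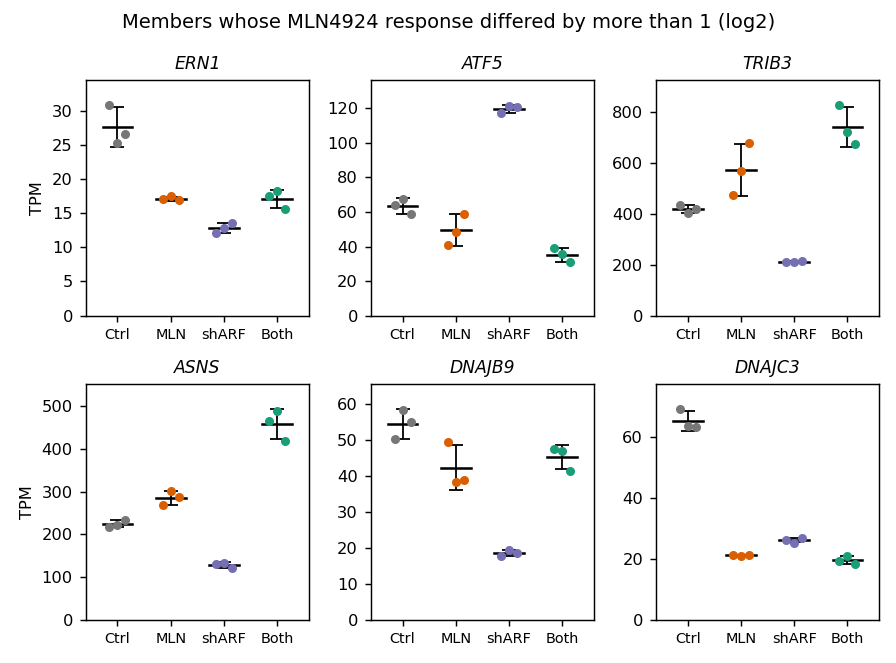
TPM on the vertical axis from 0 for the 6 members whose interaction passed an adjusted p of 0.05 and lay beyond 1 on the log2 scale, by condition on the horizontal axis. Dots are the 3 libraries of a condition, lines the mean and bars the SD (n = 3): ASNS runs from 121 to 134 TPM in shARF to 419 to 488 TPM in Both, with 218 to 234 TPM in Ctrl and 268 to 302 TPM in MLN.

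Other genes of the pathways, from lists written for this description, gave the following counts beside the shares of all genes given above for each comparison. Of 13 genes of the eIF2 machinery (kinases, eIF2, its exchange factor eIF2B and phosphatase subunits) 6 rose and 3 fell in MLN, and the kinase genes EIF2AK4 (GCN2) and EIF2AK1 (HRI) fell by 0.99 and 0.81 on the log2 scale while EIF2AK2 (PKR) rose by 0.64. In Both against shARF 4 of the 13 rose and 6 fell, with EIF2AK1 falling by 1.35 and EIF2AK4 by 1.04 and EIF2AK2 rising by 0.66. In shARF against Ctrl 7 rose and 6 were not called, and the interaction was negative and called for 5, with the other 8 not called. Of 12 cytosolic aminoacyl-tRNA synthetases, which charge tRNAs and many of which ATF4 induces, 3 rose and 4 fell in MLN, and 8 rose and 2 fell in Both against shARF. In shARF against Ctrl 11 of the 12 fell and WARS rose, by 0.44, and the interaction was positive and called for 10 of 12, up to 0.80 for EPRS (adjusted p = 0.000333, limma), and negative and called for WARS, at -0.38 (adjusted p = 0.00877).

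Of 17 tested genes among 18 further ATF4 targets, 10 rose and 6 fell in MLN, and 11 rose and 2 fell in Both against shARF. FGF21, a secreted stress hormone, rose from at most 0.119 TPM in Ctrl to 2.92 to 3.67 TPM in MLN (log2 4.32, adjusted p = 0.000130, limma), ATF3, a stress-induced repressor, from a mean of 9.25 to 174 TPM (log2 4.22, adjusted p = 1.24e-06), and JDP2, a bZIP factor, from 0.268 to 2.17 TPM (log2 2.64). ALDH18A1, the first enzyme of proline synthesis, fell by 1.82 (adjusted p = 2.28e-05, limma) and PYCR1, the last, by 0.67 (adjusted p = 0.00409). Of 26 further genes of ER folding and ER-associated degradation, 3 rose and 18 fell in MLN, with SIL1, a nucleotide exchange factor of BiP, falling by 1.86, PDIA3 by 1.54 and TXNDC5 by 1.39 (adjusted p = 0.000169, 9.82e-06 and 3.48e-05, limma). Other genes of this list had higher means with the drug. DERL1 averaged 67.0 TPM (Ctrl) and 98.5 TPM (MLN), and 75.3 TPM (shARF) and 113 TPM (Both). ERO1B, at low level, averaged 0.976, 1.99, 0.547 and 2.09 TPM in the same order. In Both against shARF 7 of the 26 rose and 12 fell, and the interaction was positive and called for 16 and negative and called for 1 (TXNDC5, -0.51).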

How the data were processed

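RNA-seq of 12 PC3 libraries in 4 conditions was used, grouped by the sample labels and the column names. In CLC Genomics Workbench the authors removed adapters, aligned to hg38 and quantified Ensembl genes, and they deposited TPM, with each library summing to 1000000. Here log2(TPM + 0.1) was tested for 19932 genes (mean over all libraries 0.1 TPM or more) with limma 3.58.1 in R 4.3.3 (eBayes with trend, Benjamini-Hochberg over all genes), each pairwise comparison on its 6 libraries and the interaction on all 12. This scale understates the change of low genes. The fits were also run on simulated libraries in which 200 of 19405 genes were changed in MLN. Of these, 178 were called in MLN vs Ctrl, with 15 others, and 169 in the interaction, with 10 others. In the real MLN vs Ctrl 12283 genes were called, a setting unlike the simulated one, so that run does not vouch for the calls here. Positions and overlaps come from GENCODE release 44, and promoters from RefSeq. In that annotation 17 of the 41 members share exon bases with another gene.

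The members, roles and further lists were chosen with earlier results of these data known. Values per library are given for ATF4, XBP1, the 3 sensors and every member beyond 1 on the log2 scale in a drug response or the interaction, and of further lists at most the 3 largest changes each way. The 3 kinases of the eIF2 machinery, single synthetases, DERL1 and ERO1B were named after their values were seen. Alternatives left out each library in turn, blocked on the column number, fitted the 12 libraries together, dropped the eBayes trend, rescaled by median of ratios, used pseudocounts of 1 and 0.01, or set the filter at 1 TPM or removed it.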

Additional observations from a re-analysis of the deposited data

Results flagged for a closer look

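For 18 of the 41 members the response to MLN4924 differed between cells with and without the hairpin by the limma interaction test at an adjusted p below 0.05, 15 with a positive and 3 with a negative value, where 11.2% of all genes tested were positive and called and 17.1% negative and called. On the log2 scale the difference was 1.65 for DNAJB9, 1.49 for ASNS, 1.37 for TRIB3, 1.19 for DNAJC3 and 1.10 for ERN1, and these 5 held with each of the 12 libraries left out in turn. Among the other chaperones it was 0.78 for MANF, 0.72 for PDIA4, 0.66 for HSP90B1 and 0.47 for HSPA5. Among the other ATF4 targets and ATF4 itself it was 0.54 for CBS, 0.54 for SLC7A1, 0.51 for CTH, 0.43 for SHMT2, 0.42 for CEBPB and 0.37 for ATF4. It was negative for ATF5 (-1.39), NUPR1 (-0.51) and STC2 (-0.25). The calls of CEBPB and STC2 were each lost without 10 of the 12 libraries in turn, that of ATF4 without 9 and that of SHMT2 without 3 (Both replicate 2, Ctrl replicate 1 and shARF replicate 3), with adjusted p up to 0.106, 0.0951, 0.0829 and 0.0577.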

How the results depend on the processing

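Of 130 member changes (every member in the 2 drug responses, and the members called in each of the other 3 comparisons), 71 kept their call and direction in every setting run and 59 did not. Column numbers did not pair the libraries (deviations of same-numbered libraries correlated with r between -0.046 and 0.022), and a replicate block left 18 of the 35 members called in MLN vs Ctrl (19 with ATF5, gained), 0 of the 22 in shARF vs Ctrl (0 of all genes by limma, 7757 at an unadjusted p below 0.05, against 9865 without the block) and 14 of the 18 in the interaction (16 with ATF6 and PPP1R15A, gained). In the pairwise fits on 6 libraries, a library whose number the other group lacked no longer informed the blocked difference. Those blocked fits had little power, so calls lost in them do not show that a change was absent. Of the 81 member changes fitted with that block, 43 lost their call, and these are counted among the 59. With the block the chaperone median was -0.92 in MLN vs Ctrl, and the interaction medians were 0.22 (ATF4 targets) and 0.60 (chaperones). The 6 libraries of Both vs shARF and of Both vs MLN share 1 number each, so there the block was fitted with 12 libraries in one fit, a choice made after seeing the data. With it 37 members were called in Both vs shARF, 36 of them among the 37 called without it, and 11 in Both vs MLN, 7 of them among the 8, with medians for ATF4 targets and chaperones of 0.66 and -0.71, and of -0.0036 and -0.035. The calls of CBS in Both vs shARF (adjusted p = 0.0802, limma) and CALR in Both vs MLN (0.134) were lost and that of SDF2L1 in Both vs shARF was gained (0.00780). With 12 libraries in one fit 13 members were called in Both vs MLN, against 8. A pseudocount of 1 gave a median of 0.34 for ATF4 targets in MLN vs Ctrl. Median-of-ratios scaling gave medians for ATF4 targets and chaperones of 0.69 and -0.64 in Both vs shARF, 0.047 and -0.015 in Both vs MLN, and 0.26 and 0.57 in the interaction. With each library left out in turn, 31 to 34 members were called in MLN vs Ctrl, 36 to 37 in Both vs shARF, 19 to 23 in shARF vs Ctrl, 4 to 8 in Both vs MLN and 14 to 19 in the interaction. The medians then ranged from 0.33 to 0.46 (ATF4 targets) and from -0.87 to -0.77 (chaperones) in MLN vs Ctrl, from 0.55 to 0.63 and from -0.76 to -0.68 in Both vs shARF, from -0.13 to 0.0062 and from -0.12 to -0.059 in Both vs MLN, and from 0.12 to 0.20 and from 0.41 to 0.53 in the interaction. Among these 130, signs turned only for changes that were not called, and the changes not called in the other 3 comparisons were not followed across settings. In MLN vs Ctrl these were ATF4 (-0.013 without MLN replicate 5 to 0.14 without MLN replicate 1), SHMT2 (-0.17 without MLN replicate 5 to 0.022 without MLN replicate 1), SLC7A1 (-0.012 with the block, and -0.020 without MLN replicate 5 to 0.14 without MLN replicate 1) and SLC6A9 (-0.17 without MLN replicate 5 to 0.13 without MLN replicate 1), and in Both vs shARF STC2 (0.036 under median-of-ratios scaling). The cause was not tested. Read depth, which would limit the precision of low members such as VLDLR, is unknown.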
